A study of Homo sapiens with 6 samples.

Results

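The genes described here were the VEGF, PDGF and angiopoietin genes of the OVCAR-3 COX-1 knockdown series, namely the 8 ligand genes *VEGFA*, *VEGFB*, *VEGFC*, *PGF*, *PDGFA*, *PDGFB*, *PDGFC* and *ANGPT2* and the 2 receptor genes *FLT1* and *KDR*. They were picked by symbol from the table of counted reads, giving 10 of its 34811 genes. OVCAR-3 is an established human ovarian carcinoma cell line. OV3/COX1KD cells were OVCAR-3 cells carrying a pRS HuSH-29 plasmid that expresses an shRNA against COX-1, and OV3/SCR cells carried the same plasmid with a scrambled shRNA and kept wild-type COX-1. Both were stable puromycin-selected clones grown in medium with serum, and each condition was sequenced as 3 libraries from independently grown populations of 1 clone, so that clone and knockdown cannot be told apart. The comparison asked how mRNA of these angiogenic factors differed when COX-1 was reduced.

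VEGF ligands are secreted dimers that signal through receptor tyrosine kinases of endothelial cells, VEGFA mainly through KDR and FLT1, VEGFB and PGF through FLT1, and VEGFC through FLT4 and, after processing, KDR. PDGF ligands act on PDGFRA and PDGFRB of fibroblasts and of the mural cells that wrap vessels, and angiopoietins act on TEK. Carcinoma cells are a known source of VEGFA, which in ovarian cancer is linked to vessel growth and ascites.

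The libraries held between 25291505 and 27391538 counts. The 3-count floor taken as the detection limit corresponded to 0.110 to 0.119 CPM (read counts scaled to a common library size), a limit that covers counting error only. The floor was scaled by the raw library total, and the levels below by the total over tested genes times the TMM scaling factor. The targeted gene, *PTGS1*, was counted 713, 658 and 641 times in OV3/SCR replicates 1 to 3 and 456, 486 and 501 times in OV3/COX1KD replicates 1 to 3. Every OV3/COX1KD library was thus below every OV3/SCR library, and 73.3% of the control level was left (log2 fold change -0.45, edgeR FDR = 1.3e-06). Of the markers of ovarian carcinoma epithelium, 8 of 8 were tested. Their summed level was 4657 to 4687 CPM in OV3/SCR and 6005 to 6182 CPM in OV3/COX1KD. *KRT8*, named after its values were seen, had the largest difference in level, from 1502 ± 19.6 to 2360 ± 36.5 CPM (SD, n = 3 each). At an edgeR FDR under 0.01, 6 were higher and 2 lower (*KRT7* and *PAX8*), beside 25.8% and 22.1% of all tested genes. Blood cell markers summed to at most 1.77 CPM in any library.

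Of the 10 genes, 6 differed between the conditions at an edgeR FDR under 0.01, 4 of them lower (*VEGFA*, *VEGFC*, *PDGFB* and *PDGFC*) and 2 higher (*VEGFB* and *PDGFA*) in OV3/COX1KD. All 6 were ligands, and neither receptor gene passed the test. Of the 17309 genes tested, 47.9% passed the same threshold, 22.1% lower and 25.8% higher, so that a call by itself was common in these libraries. With libraries scaled by total count in place of TMM the split over all genes turned, from 4473 higher and 3820 lower to 3466 higher and 4978 lower. The split of the 10 stayed at 2 higher and 4 lower. It could hardly have turned, since the shift was small beside each called change. The log2 fold change moved from -0.31 to -0.39 for *VEGFA*, the smallest of them, and from 0.54 to 0.46 for *VEGFB*. Beyond a log2 fold change of 0.5, 3 of the 10 were called, beside 19.9% of all tested genes, with *VEGFC* and *PDGFB* lower (10.0% of all) and *VEGFB* higher (9.87%). Beyond a fold change of 2.5 only *VEGFC* was called, which fell, beside 3.92% of all tested genes (2.34% lower and 1.58% higher). In bulk RNA, fewer cells expressing a gene and less of its RNA per cell cannot be told apart. The median log2 fold change over the 10 was -0.35, beside -0.0087 over all tested genes. The OV3/COX1KD libraries did not overlap the OV3/SCR libraries for 7 of the 10 genes, beside 63.2% of all tested genes.

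**Figure D1:**
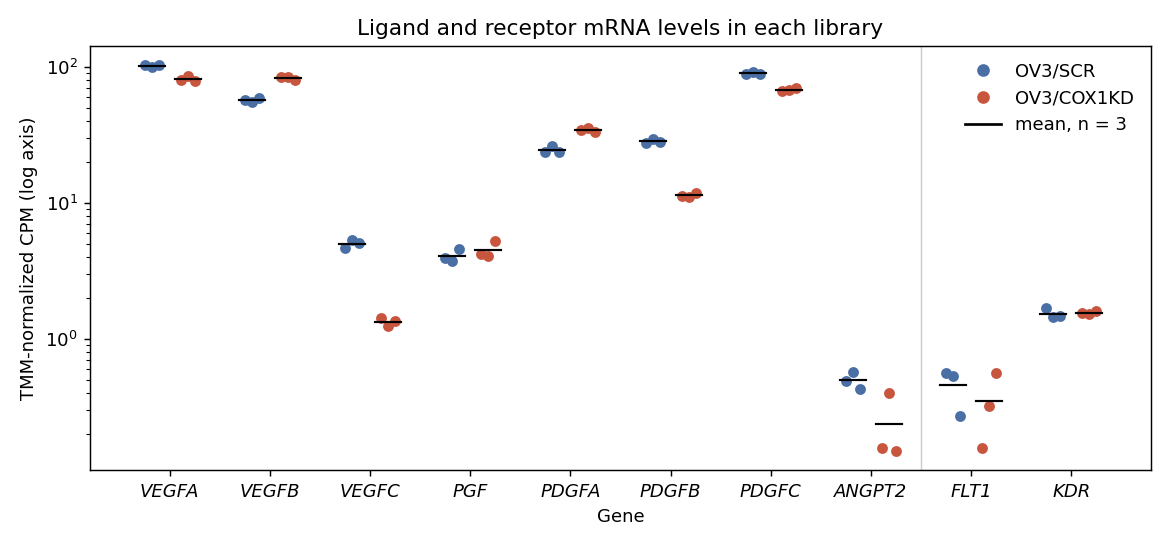
Level of each ligand gene (left of the grey line) and receptor gene (right) in the 6 libraries, as TMM-normalized CPM on a log axis, with a bar at the mean of 3. The OV3/COX1KD points of *VEGFC* and *PDGFB* lie far below those of OV3/SCR, those of *VEGFB* and *PDGFA* lie above, and those of *PGF*, *FLT1* and *KDR* overlap.

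Among the VEGF ligands, *VEGFC* (ENSG00000150630, GRCh37 chr4:177604689-177714076, minus strand), the lymphangiogenic member of the family, changed most. It had 125, 139 and 131 counts in OV3/SCR and 36, 31 and 36 in OV3/COX1KD. The conditions were far apart, with no overlap. Control libraries averaged 5.03 ± 0.324 CPM and knockdown libraries 1.34 ± 0.0972 CPM (SD, n = 3 each), or 26.6% of the control (log2 fold change -1.90, 95% interval -2.22 to -1.59, edgeR FDR = 1.4e-09).

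*VEGFA* (ENSG00000112715, chr6:43737921-43754224, plus strand), the principal vascular growth factor, had 2750, 2607 and 2665 counts in OV3/SCR and 2035, 2162 and 2119 in OV3/COX1KD. Every knockdown library lay below every control library, yet the distance was small next to that of *VEGFC*. Control libraries averaged 102 ± 1.78 CPM and knockdown libraries 82.2 ± 3.57 CPM (SD, n = 3 each), 80.5% of the control (log2 fold change -0.31, 95% interval -0.39 to -0.23, edgeR FDR = 5.6e-07). The count is the sum over all *VEGFA* splice forms, which gene counts do not separate.

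*VEGFB* (ENSG00000173511, chr11:64002056-64006736, plus strand), a ligand of FLT1 with little direct vascular growth activity in most tissues, moved the other way. It had 1531, 1432 and 1523 counts in OV3/SCR and 2124, 2100 and 2148 in OV3/COX1KD, with no overlap. The level rose from 57.1 ± 2.00 to 82.9 ± 2.03 CPM (SD, n = 3 each), 1.45-fold (log2 fold change 0.54, 95% interval 0.46 to 0.62, edgeR FDR = 4.3e-10). At these levels *VEGFB* in OV3/COX1KD stood at about the CPM of *VEGFA*, before any scaling for transcript length.

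*PGF* (ENSG00000119630, chr14:75408537-75422329, minus strand), placental growth factor, had 105, 98 and 119 counts in OV3/SCR and 107, 102 and 140 in OV3/COX1KD. The conditions overlapped, with OV3/COX1KD replicate 3 the highest library. The log2 fold change was 0.15 with a 95% interval of -0.13 to 0.42 (edgeR FDR = 0.359), so that a change of the size seen for *VEGFB* lay outside the interval, while a smaller rise or a slight fall did not.

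Start-site sequences from RefSeq (GRCh38.p14) were listed for 6 of the 10 genes, *VEGFB*, *VEGFC*, *PGF*, *PDGFA*, *FLT1* and *KDR*. The 250 bases upstream of the start are shown for the 3 listed genes that changed, the falling *VEGFC* and the rising *VEGFB* and *PDGFA*, 5′ to 3′ on the gene's strand, with each GC box (GGGCGG or its complement on the other strand) in capitals. They are chr4:176792923-176793172 for *VEGFC*, minus strand, chr11:64234334-64234583 for *VEGFB*, plus strand, and chr7:520227-520476 for *PDGFA*, minus strand, the first of 4 starts listed.
VEGFC: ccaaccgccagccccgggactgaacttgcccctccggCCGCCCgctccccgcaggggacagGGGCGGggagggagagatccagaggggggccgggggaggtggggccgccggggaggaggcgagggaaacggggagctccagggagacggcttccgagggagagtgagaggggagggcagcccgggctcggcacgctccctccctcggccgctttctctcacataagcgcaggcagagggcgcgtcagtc
VEGFB: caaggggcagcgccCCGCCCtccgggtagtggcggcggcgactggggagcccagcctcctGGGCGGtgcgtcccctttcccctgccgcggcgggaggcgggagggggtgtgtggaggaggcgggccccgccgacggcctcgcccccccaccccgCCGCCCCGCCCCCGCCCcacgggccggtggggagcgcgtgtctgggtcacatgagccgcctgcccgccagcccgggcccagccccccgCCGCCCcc
PDGFA: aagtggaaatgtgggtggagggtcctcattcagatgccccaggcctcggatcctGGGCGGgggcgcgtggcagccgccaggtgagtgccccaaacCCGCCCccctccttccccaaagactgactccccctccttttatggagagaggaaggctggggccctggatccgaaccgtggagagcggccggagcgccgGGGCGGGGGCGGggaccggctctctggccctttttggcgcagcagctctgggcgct

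All 3 stretches were rich in G and C, at 74.0% for *VEGFC*, 82.8% for *VEGFB* and 68.8% for *PDGFA*. The *VEGFB* stretch held 6 GC boxes, a number that 2.22% of the 35116 listed promoters reached, the *PDGFA* stretch 4 (7.63%) and the *VEGFC* stretch 2 (24.3%), overlapping matches counted separately. The other listed *PDGFA* starts held 3 (13.9%), 1 (42.6%) and 5 (4.15%), so the number depended on the start. Which start these cells use was not tested. At least 1 GC box was found in 42.6% of all listed promoters, and in every listed start of the 6 genes, with *PGF*, *FLT1* and *KDR*, which had no call, among them. The hypoxia response core (ACGTG or GCGTG, both strands), which 43.2% of promoters held, occurred once in each of the 3 stretches as GCGTG, in no case overlapping a GC box. In the other listed *PDGFA* starts GCGTG occurred 1, 3 and 0 times. TATAAA, held by 10.7% of promoters, was found only in the *FLT1* stretch among the listed starts of these genes, and the AP-1 motif TGANTCA, held by 6.57%, in none.

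Of the 3 PDGF ligands among the 10 genes, *PDGFB* (ENSG00000100311, chr22:39619364-39640987, minus strand), which recruits mural cells to vessels, fell most. It had 742, 774 and 727 counts in OV3/SCR and 284, 278 and 316 in OV3/COX1KD. The knockdown libraries all lay well under the control libraries. Control libraries averaged 28.6 ± 1.01 CPM and knockdown libraries 11.4 ± 0.399 CPM (SD, n = 3 each) (log2 fold change -1.32, 95% interval -1.45 to -1.19, edgeR FDR = 4.6e-13). The fitted fold of 2.4996 fell just short of the limit of 2.5.

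*PDGFA* (ENSG00000197461, chr7:536895-559933, minus strand), a ligand of PDGFRA, had 631, 679 and 609 counts in OV3/SCR and 866, 894 and 893 in OV3/COX1KD. All knockdown libraries were above all control libraries. The level rose from 24.4 ± 1.41 to 34.5 ± 1.08 CPM (SD, n = 3 each), 1.41-fold (log2 fold change 0.499, 95% interval 0.39 to 0.61, edgeR FDR = 1.3e-07). This estimate sat at the limit of 0.5, and its interval covered both sides of it.

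*PDGFC* (ENSG00000145431, chr4:157681606-157892951, minus strand), which is secreted in a latent form and cleaved to become active, had 2376, 2411 and 2294 counts in OV3/SCR and 1683, 1697 and 1872 in OV3/COX1KD. The ranges were apart. Control libraries averaged 90.1 ± 2.08 CPM and knockdown libraries 68.3 ± 1.77 CPM (SD, n = 3 each), 75.8% of the control (log2 fold change -0.40, 95% interval -0.48 to -0.32, edgeR FDR = 1.4e-08).

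*ANGPT2* (ENSG00000091879, GRCh37 chromosome 8 from 6357153 to 6420930, minus strand), the context-dependent antagonist of TEK that endothelial cells release, was near the detection limit. It had 13, 15 and 11 counts in OV3/SCR and 4, 10 and 4 in OV3/COX1KD. Each knockdown library was below each control library, but the log2 fold change of -1.07 (95% interval -1.94 to -0.20, edgeR FDR = 0.0341) did not pass the threshold. It passed with OV3/COX1KD replicate 2 left out, at a log2 fold change of -1.65 and an edgeR FDR of 0.00609, so that 1 library decided the call. On the opposite strand *MCPH1* exons cover 9.69% of the *ANGPT2* exon length, and reads of one could not be told from the other without strand.

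The VEGF receptor genes were both scarce. *FLT1* (ENSG00000102755, chr13:28874483-29069282, minus strand), whose gene count joins the membrane receptor and its soluble form, had 15, 14 and 7 counts in OV3/SCR and 4, 8 and 15 in OV3/COX1KD. The conditions overlapped, and the log2 fold change was -0.38 with a 95% interval of -1.28 to 0.52 (edgeR FDR = 0.465). It was -0.92 without OV3/COX1KD replicate 3 and -0.042 without OV3/COX1KD replicate 1, with no call in either case. *KDR* (ENSG00000128052, chr4:55944648-55991762, minus strand), the main signalling receptor of VEGFA, had 45, 38 and 38 counts in OV3/SCR and 39, 38 and 43 in OV3/COX1KD. Its libraries overlapped as well, with a log2 fold change of 0.020 (95% interval -0.37 to 0.41, edgeR FDR = 0.936) whose sign changed with total count scaling (-0.058).

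**Figure D2:**
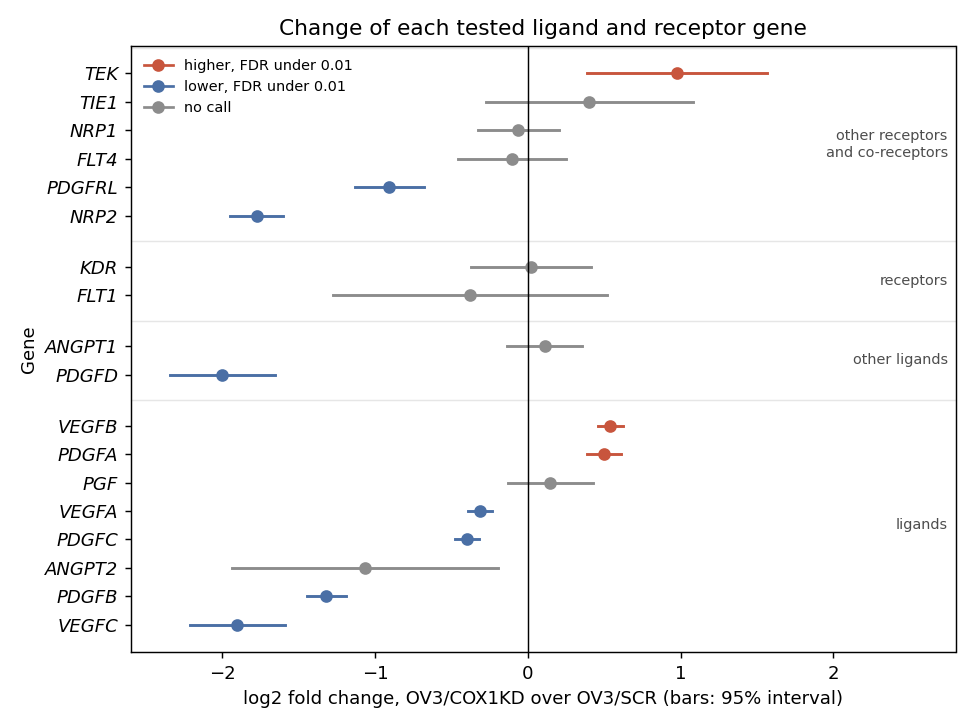
Log2 fold change of OV3/COX1KD over OV3/SCR with its 95% interval for every ligand, receptor and co-receptor gene of the 3 families that could be tested, red and blue where the edgeR FDR was under 0.01. *PDGFD* (-2.00), *VEGFC* (-1.90) and *NRP2* (-1.78) lie at the left, *TEK* (0.98) at the right, and the intervals of *ANGPT2*, *FLT1* and *TIE1* are the widest.

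To compare levels between genes, CPM were divided by the length of the Ensembl canonical transcript. In OV3/SCR the order on this CPM per kilobase scale was *VEGFB* (31.6), *VEGFA* (28.3), *PDGFC* (19.7), *PDGFA* (8.91), *PDGFB* (7.66), *PGF* (2.36), *VEGFC* (2.22), *KDR* (0.264), *ANGPT2* (0.0942) and *FLT1* (0.0641). Only *PGF* and *VEGFC* overlapped as neighbours in this order. In OV3/COX1KD the first 8 places were held by the same genes in the same order, at 46.0 for *VEGFB*, 22.8 for *VEGFA*, 14.9 for *PDGFC*, 12.6 for *PDGFA*, 3.06 for *PDGFB*, 2.60 for *PGF*, 0.592 for *VEGFC* and 0.267 for *KDR*. Here *PDGFB* and *PGF* overlapped as neighbours, as did *FLT1* (0.0487) and *ANGPT2* (0.0448). With the union of all exons as length, which is 14431 bases for *VEGFA* against 3609 for its canonical transcript, *VEGFA* dropped to 4th place in both conditions, so its rank depended on the transcript model.

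Shares of the ligands within each family were compared next, on the same scale. In the VEGF family, *VEGFB* made up 48.6% to 49.4% of the summed CPM per kilobase in the OV3/SCR libraries and 63.4% to 64.7% in the OV3/COX1KD libraries. The share of *VEGFA* was 43.2% to 44.2% in OV3/SCR and 31.0% to 32.6% in OV3/COX1KD. The difference between the mean *VEGFA* shares, -12.2 percentage points, was -6.69 with the union of exons as length. The share of *VEGFC* was 3.20% to 3.76% and 0.747% to 0.875%. The share of *PGF* overlapped, at 3.65% ± 0.307 and 3.62% ± 0.588 (SD, n = 3 each). The family sum was 64.5 ± 1.72 CPM per kilobase in control and 71.9 ± 1.46 CPM per kilobase in knockdown libraries (SD, n = 3 each), so that total VEGF ligand mRNA was not lower in the knockdown on this scale.

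In the PDGF family, with *PDGFD* as the remaining member, the share of *PDGFA* was 23.1% to 24.4% in OV3/SCR and 39.3% to 41.7% in OV3/COX1KD. The share of *PDGFB* was 20.3% ± 0.234 in the control and 9.89% ± 0.343 in the knockdown (SD, n = 3 each). *PDGFC* held 52.0% to 52.4% and 47.5% to 49.4%, a difference of -3.98 percentage points between the means that was -0.62 with the union of exons as length and -1.55 without division by length. *PDGFD* held 3.08% to 4.53% and 1.12% to 1.30%. The family sum went from 37.8 ± 1.01 to 31.0 ± 0.361 CPM per kilobase (SD, n = 3 each). Of the 9 shares tested over both families, 7 were fully apart, each with an exact two-sided permutation p of 0.1 (adjusted p = 0.129), the smallest that 3 against 3 libraries allow, and both family sums likewise gave an exact p of 0.1.

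**Figure D3:**
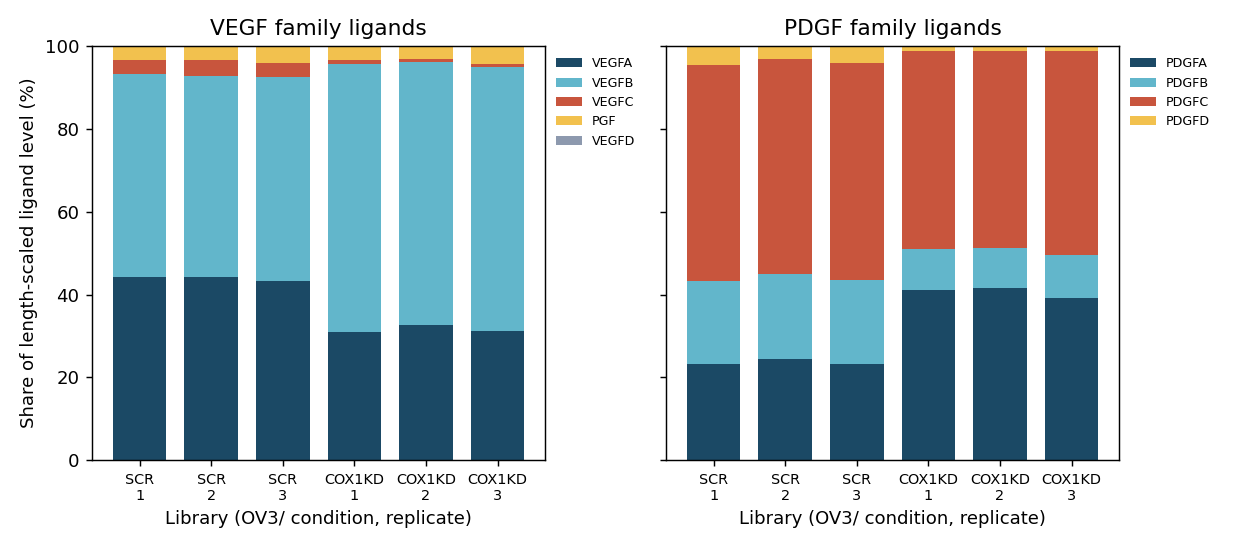
Share of each ligand in the summed length-scaled level (CPM per kilobase of canonical transcript) of the VEGF family (left) and PDGF family (right), 1 bar per library. The *VEGFB* and *PDGFA* parts are taller in all 3 OV3/COX1KD libraries, and the *VEGFC*, *PDGFB* and *PDGFD* parts are shorter.

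Other ligands of the families were *PDGFD*, *VEGFD*, *ANGPT1* and *ANGPT4*, of which 2 could be tested. *PDGFD*, a ligand of PDGFRB, had 173, 120 and 150 counts in OV3/SCR and 33, 39 and 36 in OV3/COX1KD, a 4.01-fold fall (log2 fold change -2.00, standard error 0.16, edgeR FDR = 3.0e-09). *ANGPT1*, the agonist of TEK, had 141, 112 and 125 counts against 127, 123 and 149, and no call (log2 fold change 0.11, edgeR FDR = 0.437). *VEGFD* and *ANGPT4* had at most 1 count in any library.

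Of the 8 other receptors and co-receptors, 6 were tested, 2 were lower and 1 was higher, beside 22.1% and 25.8% of all tested genes. *NRP2*, the neuropilin that binds VEGFC and VEGFA as a co-receptor, had 455, 469 and 455 counts in OV3/SCR and 128, 117 and 149 in OV3/COX1KD, 29.1% of the control (log2 fold change -1.78, standard error 0.083, edgeR FDR = 5.6e-13). Its paralog *NRP1* had 100, 93 and 107 counts against 95, 88 and 98 and no call (log2 fold change -0.063, edgeR FDR = 0.688), as had the VEGFC receptor gene *FLT4*, with 60, 54 and 65 counts against 56, 46 and 61 (log2 fold change -0.10, edgeR FDR = 0.617). *PDGFRL*, a receptor-like gene without a kinase domain, fell to 53.2% of the control (log2 fold change -0.91, edgeR FDR = 5.2e-07). *TEK*, named after its values were seen, had 22, 12 and 11 counts in OV3/SCR and 31, 26 and 30 in OV3/COX1KD (log2 fold change 0.98, edgeR FDR = 0.00584). The PDGF receptors themselves were too scarce to test, with 9, 5 and 8 counts of *PDGFRA* in OV3/SCR and 1, 4 and 4 in OV3/COX1KD, and 2, 3 and 3 against 6, 6 and 6 counts of *PDGFRB*.

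All 9 listed enzymes and cofactors that process these ligands were tested, with a median log2 fold change of -0.63. Of the 9, 5 were lower and 2 higher, beside 22.1% and 25.8% of all tested genes, and 2 were without a call. The proprotein convertase gene *PCSK5* fell to 41.4% of the control, from 24.9 ± 0.810 to 10.3 ± 1.08 CPM (SD, n = 3 each) (log2 fold change -1.27, edgeR FDR = 1.0e-11). *PCSK7* fell to 60.6% (log2 fold change -0.72, edgeR FDR = 1.7e-09) and *PLAU*, the urokinase that can activate PDGFD, to 62.1% (log2 fold change -0.69, edgeR FDR = 1.3e-10). The other two of the 5, named after their values were seen, were *FURIN*, which with PCSK5 and PCSK7 cleaves the VEGFC precursor, at 62.4% (log2 fold change -0.68, edgeR FDR = 4.5e-11), and *ADAMTS3*, which makes the final activating cut in VEGFC, at 64.5% (log2 fold change -0.63, edgeR FDR = 5.9e-08). *PCSK6* rose 1.75-fold (log2 fold change 0.81, edgeR FDR = 3.7e-05). The other higher gene, *CTSD*, also named after its values were seen, rose 1.21-fold (log2 fold change 0.27, edgeR FDR = 7.3e-07). Its level went from 194 ± 1.56 to 234 ± 10.0 CPM (SD, n = 3 each). *CCBE1*, the cofactor of ADAMTS3, had 28, 30 and 22 counts against 15, 18 and 24 and no call (log2 fold change -0.46, edgeR FDR = 0.141). *PLAT*, which activates PDGFC, had none either (log2 fold change -0.082, edgeR FDR = 0.199).

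Downstream of the receptors, 11 of 12 signalling partners were tested, with a median log2 fold change of 0.12. Beside 47.9% of all tested genes called, 4 of the 11 were higher, 2 lower and 5 without a call. The largest change in this list was the fall of *PLCG1*, the phospholipase that KDR recruits, to 69.8% of the control (log2 fold change -0.52, edgeR FDR = 2.4e-09).

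Oxygen-sensing genes set the HIF activity that drives VEGFA in hypoxia. Of 8 such genes, 3 were higher and 4 lower, beside 25.8% and 22.1% of all tested genes. The HIF prolyl hydroxylase genes *EGLN3*, at 56.3% of the control (log2 fold change -0.83, edgeR FDR = 6.1e-04), and *EGLN2* (identified in the table by ENSG00000269858), at 70.7% (log2 fold change -0.50, edgeR FDR = 3.4e-06), fell most. The 3 that were higher, named after their values were seen, were *ARNT* (1.30-fold, edgeR FDR = 2.1e-07), *VHL* (1.26-fold, edgeR FDR = 5.4e-07) and *HIF1A* (1.09-fold, edgeR FDR = 0.00224). Of 10 hypoxia-response genes tested, 3 were higher, 3 lower and 4 without a call, beside 47.9% of all tested genes called. The median log2 fold change of the 10 was -0.042. The stress-responsive gene *NDRG1* stood apart from the rest of that list, at 110 ± 0.861 CPM in control and 318 ± 7.89 CPM in knockdown libraries (SD, n = 3 each) (log2 fold change 1.53, edgeR FDR = 3.9e-18).

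Of the angiopoietin-like genes, secreted relatives of the angiopoietins that do not bind TEK, 2 of 8 were tested, and *ANGPTL2* rose 2.07-fold, from 33.8 ± 1.12 to 69.9 ± 1.45 CPM (SD, n = 3 each) (log2 fold change 1.05, edgeR FDR = 5.8e-14). Of 7 angiogenesis inhibitors, 3 were higher, 1 lower and 3 without a call, beside 47.9% of all tested genes called. *ADAMTS1*, a protease that can bind VEGFA, rose 1.68-fold (log2 fold change 0.75, edgeR FDR = 4.2e-14).

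**Figure D4:**
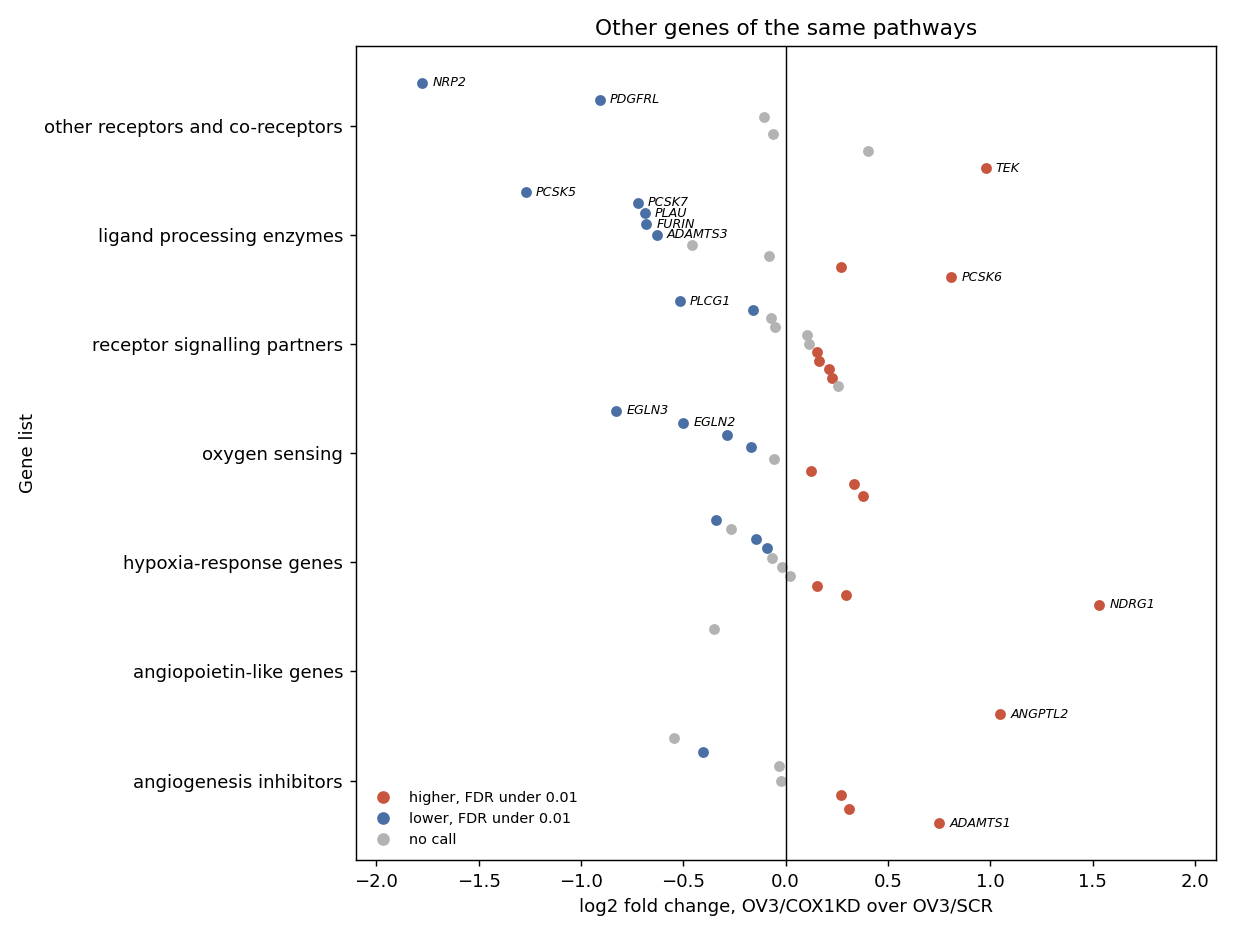
Log2 fold change of OV3/COX1KD over OV3/SCR for each tested gene of 7 lists of the same pathways, 1 point per gene, named where the call lay beyond 0.5. Of the 9 ligand processing genes, 5 lie left of -0.5. The hypoxia-response genes lie between -0.34 (*BNIP3*) and 0.30 (*PDK1*) apart from *NDRG1* at 1.53.

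Markers of the cells on which these ligands act were examined in the same libraries. Of 7 endothelial markers in the table, *CDH5* (1, 1 and 3 counts in OV3/SCR and 2, 0 and 0 in OV3/COX1KD), *EMCN* (2, 3 and 3 against 0, 2 and 2) and *CLDN5* (4, 3 and 5 against 2, 1 and 5) were at or near 0. *VWF* (40, 25 and 38 against 47, 34 and 52), *ESAM* (8, 22 and 10 against 5, 8 and 11) and *ERG* (387, 346 and 325 against 322, 300 and 296) were counted in every library and had no call. The summed level of that list was 66.6 to 70.9 CPM in OV3/SCR and 103 to 109 CPM in OV3/COX1KD, and most of it was *EGFL7*, at 53.0 ± 1.28 and 91.5 ± 2.19 CPM (SD, n = 3 each) (log2 fold change 0.79, edgeR FDR = 7.9e-13). The mural cell and fibroblast list summed to 169 to 185 CPM in OV3/SCR and 200 to 221 CPM in OV3/COX1KD, and most of it was *NOTCH3*, at 159 ± 6.99 and 169 ± 9.44 CPM (SD, n = 3 each) without a call (edgeR FDR = 0.0853). Of the other members, *CSPG4* was 2.89-fold higher (log2 fold change 1.53, edgeR FDR = 2.3e-14), *DES* and *LUM* were at or under the floor in every library, and *RGS5*, *ACTA2*, *MYH11* and *DCN* had at most 51 counts in any library and no call, *RGS5* being too scarce to test. In the epithelial list, *MUC16* (log2 fold change 1.36), *CDH1* (0.85) and *KRT18* (0.75) rose and *PAX8* (-0.76) fell, and the part of these differences in the ligand results was not tested.

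Because each condition was 1 clone, the genes around each changed member were read as well. Within 1 Mb of *VEGFC* 4 genes were tested at a mean log2 CPM of 1 or more. Their median log2 fold change was 0.091, and none was lower or higher beyond 0.5. Around *PDGFB* there were 24, with a median of -0.018, 1 lower beyond 0.5 and 6 higher beyond 0.5. Around *VEGFB* the median was -0.045 over 51 genes, of which 5 were lower and 6 higher beyond 0.5. For *PDGFA* it was 0.080 over 15 genes, none lower and 2 higher beyond 0.5. For *VEGFA* it was -0.00047 over 33 genes, none lower and 3 higher beyond 0.5. *PDGFC* had only 2 such neighbours, at -0.13 and 1.36. Around *PDGFD* the median was -0.12 over 4 genes, of which 1 was lower beyond 0.5 (-0.71). Around *NRP2* it was 0.22 over 6 genes, of which 1 was lower beyond 0.5 (-0.79). None was higher beyond 0.5 around *PDGFD* or *NRP2*. Among all tested genes, whatever their mean log2 CPM, 10.0% were lower and 9.87% higher beyond 0.5 at an edgeR FDR under 0.01. Whether local differences between the clones have a part in the changes of the ligand and receptor genes was not tested.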

How the data were processed

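RNA-seq was performed on 3 OV3/SCR and 3 OV3/COX1KD libraries. The authors mapped the reads on hg19 by TopHat2, counted them per gene by HTSeq and deposited these raw counts; the gene annotation and strand setting are not given in the sources used here, and the TruSeq kit named in the labels does not mark strand. The libraries of a condition came from independent passages of 1 clone, so p-values measure the spread between passages. Replicate numbers were not treated as pairs, since the same-number correlations of deviations from the group means were 0.0019, 0.048 and 0.022. Those between different numbers lay between -0.042 and 0.021. The same-number library was the best match for OV3/COX1KD replicates 2 and 3, but not for replicate 1.

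The counts were analysed with edgeR 4.0.16 in R 4.3.3. TMM gave the scaling factors and filterByExpr the tested genes (17309 of 34811, all 10 described genes included; *ANGPT2* had 10 or more counts in only 1 OV3/COX1KD library), and the conditions were compared by glmQLFit and glmQLFTest with Benjamini-Hochberg adjustment over the kept genes. Calls were made at an FDR under 0.01. This threshold, the fold limit of 2.5 and the log2 limit of 0.5 are those of the study, which used DESeq2. Ligand shares were compared by exact permutation (scipy 1.17.1). Gene positions and lengths came from GENCODE on GRCh37. The members and gene lists were chosen with earlier results of these data known. Named genes were the 10 members, *PTGS1*, and in each other list up to 3 rises and 3 falls with an FDR under 0.01, a log2 fold change beyond 0.5 and a mean log2 CPM of at least 0. Fits were tested on simulated data. Alternatives were RLE and total count scaling, other filters, DESeq2 1.42.0, a replicate block, GC and length offsets, and leaving out each library. The union of exons as gene length was chosen after seeing the data.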

Additional observations from a re-analysis of the deposited data

How the results depend on the processing

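The 6 calls among the members kept their direction and their FDR under 0.01 under all 14 alternatives, with log2 fold changes of -1.98 to -1.84 for *VEGFC*, -0.39 to -0.25 for *VEGFA*, 0.46 to 0.56 for *VEGFB*, -1.40 to -1.29 for *PDGFB*, 0.42 to 0.55 for *PDGFA* and -0.48 to -0.38 for *PDGFC*. *KDR*, without a call in any setting, changed sign under total count scaling (-0.058), GC and length offsets (-0.0039) and these offsets with the replicate block (-0.0028), and ranged from -0.016 to 0.094 when single libraries were left out. *ANGPT2* ranged from -1.65 to -0.82 in the same way, with a call only without OV3/COX1KD replicate 2, and *FLT1* from -0.92 to -0.042, with no call. The number of members called higher beyond 0.5 was 1, but 0 under total count scaling, 2 without a filter, 2 with DESeq2, 2 with GC and length offsets, 2 with these and the replicate block, and 1 to 2 with single libraries left out. *VEGFB* was below the limit under total count scaling (0.46), and *PDGFA* was the gene added elsewhere. The replicate block alone left 2 members higher and 4 lower, with 4437 genes higher and 3796 lower in all, and changed no call among the members. For *FLT1* and *ANGPT2* a filter of 10 counts in every library gave no value.

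Differences in ligand share (OV3/COX1KD minus OV3/SCR, percentage points) kept their sign except for *PGF*. With the union of exons as length they were -6.69 for *VEGFA*, 10.8 for *VEGFB*, -3.93 for *VEGFC*, 15.6 for *PDGFA*, -11.9 for *PDGFB* and -0.62 for *PDGFC*. Without division by length they were -2.21 for *VEGFC*, 0.22 for *PGF*, 13.5 for *PDGFA*, -9.32 for *PDGFB* and -1.55 for *PDGFC*. *PGF* ranged from -0.36 to 0.19 with single libraries left out. Counts of at most 15 per library limited *ANGPT2* and *FLT1*.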
